A study of Homo sapiens with 9 samples.

Results

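Cholesterol and fatty acid synthesis was described here through 30 genes, chosen by symbol from the 60662 genes of an RNA-seq table. They cover the mevalonate and isoprenoid steps (7 genes), the steps from squalene to cholesterol (11 genes), the sterol regulatory element-binding protein (SREBP) control of both pathways with 1 sterol carrier (5 genes), and fatty acid synthesis and desaturation (7 genes). The study asked what loss of the kinase *DYRK1A* does to SET2, a *JAK2*-mutant megakaryoblastic leukemia line established after a myeloproliferative neoplasm had turned into acute leukemia. Bulk RNA was sequenced from 3 libraries of WT SET2 cells and from 3 libraries of each of 2 *DYRK1A* KO clones, 11H1 and 14B5, all of them untreated. Each clone was grown from 1 sorted cell that had received a Cas9 ribonucleoprotein by nucleofection and was chosen for out-of-frame indels, so the libraries of a clone share their founder. No clone grown from an unedited cell was among the samples, and p values therefore measure the spread between libraries of these particular cells.

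Cells make cholesterol from acetyl-CoA through mevalonate, farnesyl diphosphate, squalene and lanosterol, and make fatty acids from the same precursor through malonyl-CoA. When sterols are scarce in the endoplasmic reticulum, SCAP escorts the SREBP precursors to the Golgi, where proteases release the transcription factors that switch on most genes of both pathways. When sterols are plentiful, INSIG proteins hold the SCAP complex back, and *INSIG1* is itself an SREBP target. SREBPs act at promoters together with general partners, among them the CCAAT-binding factor NF-Y and the GC box-binding factor SP1.

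Library totals ran from 40995338 to 50311970 expected counts in WT, from 32347779 to 53582343 in 11H1 and from 44622303 to 60272245 in 14B5. The members were well covered, the lowest being *HSD17B7* with 300.3 to 572 expected counts per library and the highest *SCD* with 20568 to 60490. *DYRK1A* RNA, in which the out-of-frame indels need not show, was at 197, 196 and 219 CPM (reads of a gene relative to its library's TMM-scaled total) in the WT libraries, 188, 191 and 192 CPM in those of 11H1 and 191, 182 and 174 CPM in those of 14B5. All KO libraries lay below all WT libraries by this small margin. Its log2FC was −0.09 in 11H1 and −0.17 in 14B5 (edgeR adjusted p = 0.131 and 0.0278), and the call in 14B5 was lost without WT library 3 or 14B5 library 2 or 3 (adjusted p from 0.103 to 0.138), with no filter on low counts (0.072) and with a replicate block (0.0824). The megakaryocyte markers on a list of 9 summed to 2091 to 2099.8 CPM in WT, 1678 to 1762 CPM in 11H1 and 1687 to 1741 CPM in 14B5, with *ITGA2B* the highest in every group. They did not move together, since *GP9* averaged 22.2 CPM in WT, 4.27 CPM in 11H1 and 0.804 CPM in 14B5 and *ITGB3* averaged 54.9, 20.3 and 5.77 CPM, whereas *TAL1* averaged 243, 333 and 310.4 CPM. *PF4* was at 0.510 CPM in WT and at 0 in both clones. Markers of the tissues best known for these pathways were at or near 0, with *ADIPOQ* at 0 in every group and the 2 hepatocyte markers summing to at most 0.104 CPM. T cell, epithelial and fibroblast markers summed to at most 4.14 CPM. The monocyte marker *LYZ* averaged 196 CPM in WT, 104 CPM in 11H1 and 117 CPM in 14B5, and the B cell marker *CD79A* averaged 22.2, 16.0 and 12.2 CPM. The mitochondrial share of the counts was 7.23% to 7.39% in 11H1, against 3.54% to 6.03% in WT and 3.30% to 3.92% in 14B5. The part of these shifts in the results that follow was not tested, and in bulk RNA fewer cells of a type cannot be told apart from less RNA per cell.

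The start regions of 4 members are printed, *SREBF2* because it alone carried the sterol regulatory element searched for, and *INSIG1*, *SCD* and *STARD4* because they had the largest mean falls over the clones among the members with a CCAAT box whose start region could be shown. RefSeq gave at least 1 promoter, from 250 bases before to 50 bases after the start, for 26 of the 30 members, and several for 7 of them. Each sequence is given 5′ to 3′ on the gene's own strand of GRCh38.p14, from 250 bases before the RefSeq start to the base before the GENCODE v29 gene model. Capitals mark the sterol regulatory element, searched as TCACNCCAC, and the CCAAT box, which reads ATTGG when it lies on the opposite strand. The 4 stretches are chr22:41832855-41833078 (+) for *SREBF2*, chr7:155297628-155297775 (+) for *INSIG1*, chr10:100346983-100347123 (+) for *SCD* and chr5:111512591-111512785 (−) for *STARD4*.
SREBF2: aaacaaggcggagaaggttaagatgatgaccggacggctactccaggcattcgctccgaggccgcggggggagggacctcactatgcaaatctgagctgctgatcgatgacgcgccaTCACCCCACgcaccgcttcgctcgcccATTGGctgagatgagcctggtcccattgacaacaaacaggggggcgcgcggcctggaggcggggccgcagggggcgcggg
INSIG1: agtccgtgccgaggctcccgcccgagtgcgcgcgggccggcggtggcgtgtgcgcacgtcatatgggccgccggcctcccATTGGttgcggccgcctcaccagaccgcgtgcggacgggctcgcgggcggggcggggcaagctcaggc
SCD: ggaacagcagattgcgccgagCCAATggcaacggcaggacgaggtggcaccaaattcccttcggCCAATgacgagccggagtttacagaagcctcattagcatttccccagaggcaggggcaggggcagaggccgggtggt
STARD4: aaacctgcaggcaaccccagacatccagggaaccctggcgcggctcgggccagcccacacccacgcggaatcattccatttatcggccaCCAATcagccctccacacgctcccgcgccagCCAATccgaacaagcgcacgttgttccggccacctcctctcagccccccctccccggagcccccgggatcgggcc

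A gene was counted once, with a motif in any of its promoters and on either strand. The CCAAT box was found in 20 of 26 members (76.9%), against 39.7% of all 27305 genes with a promoter and 42.1% of the 15843 protein-coding ones. Counted by promoter it was in 24 of the members' 35 (68.6%), against 34.6% of all 35116. The GC box GGGCGG was in 25 of 26 members (96.2%), against 48.3% of all genes and 64.3% of protein-coding genes, and in 88.6% of the members' promoters against 45% of all. The E-box CACGTG was in 4 members (15.4%), *INSIG1*, *LSS*, *SC5D* and *SCAP*, against 8.77% and 10.9% of genes. The strict form of the sterol regulatory element was in 1 member, *SREBF2*, where it began 133 bases and a CCAAT box 106 bases before the start, and in 1.39% of all genes. These are matches of letters in a short window, given as a description. None of the motifs overlapped another in the printed capitals.

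Most members were lower in both clones, and none was called higher in either. In 11H1 versus WT, 26 of the 30 were lower past an adjusted p of 0.05 (edgeR's quasi-likelihood F test, Benjamini-Hochberg adjusted over all 16675 genes tested) and 4 were not called, where 32.8% of all genes were called lower and 31.8% higher. In 14B5 versus WT, 24 were lower and 6 were not called, where 28.7% of 16537 genes were lower and 24.9% higher. With both clones pooled as KO, 21 were lower and 9 were not called, where 17.7% of 17080 genes were lower and 14.3% higher. The median log2FC of the members was −0.46 in 11H1, −0.34 in 14B5 and −0.40 in KO, against −0.01, −0.01 and 0.02 over all genes tested. No member was higher in 11H1, 14B5 or KO at an unadjusted p under 0.05, and DESeq2 and limma-voom also called 0 higher. All 30 passed the filter on low counts in every comparison, and the comparisons share the 3 WT libraries.

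**Figure D1:**
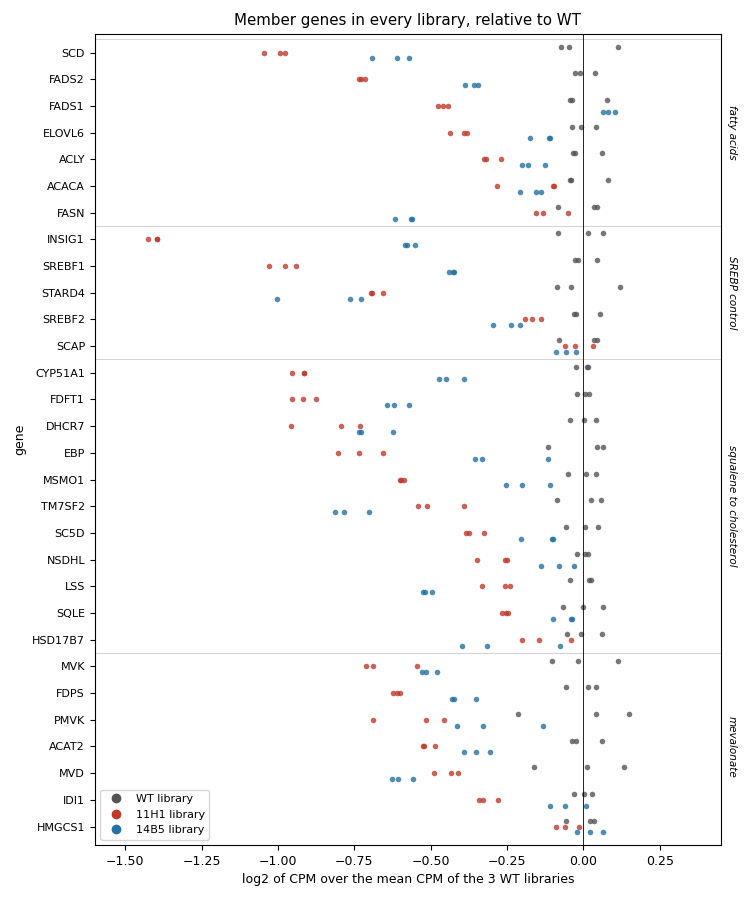
Each point is 1 library; the horizontal axis is the log2 of its CPM over the mean CPM of the 3 WT libraries, and genes are grouped by role on the vertical axis (WT gray, 11H1 red, 14B5 blue). For 22 of the 30 genes all 6 KO libraries lay below all 3 WT libraries, *INSIG1* in 11H1 lay furthest from WT, and the KO libraries of *SCAP* and *HMGCS1* overlapped the WT libraries.

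The libraries themselves showed the same separation. For 22 of the 30 members every KO library was below every WT library, where 20.3% of the 17080 genes tested were. The summed level of the 30 genes was 6755 ± 147 CPM (SD, n = 3) in WT, 4668 ± 47.2 CPM (SD, n = 3) in 11H1 and 5283 ± 48.0 CPM (SD, n = 3) in 14B5, so 11H1 stood at 0.691 and 14B5 at 0.782 of the WT mean. By role, the sums in 11H1 and 14B5 stood at 0.669 and 0.747 of WT for the steps from squalene to cholesterol, at 0.663 and 0.768 for fatty acid synthesis and desaturation, at 0.761 and 0.811 for SREBP control and sterol transfer, and at 0.791 and 0.875 for the mevalonate and isoprenoid steps. Abundant genes weigh most in these sums, and the median log2FC per gene gave another order. In 11H1 and 14B5 this median was −0.67 and −0.45 for SREBP control and −0.50 and −0.37 for the mevalonate steps. It was −0.48 and −0.28 from squalene to cholesterol, and −0.40 and −0.18 for the fatty acid genes.

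Of the 5 genes of SREBP control and sterol transfer, 4 were lower in each clone and in KO. Of all genes tested, 32.8% were lower in 11H1, 28.7% in 14B5 and 17.7% in KO. *INSIG1*, which retains the SCAP complex in the endoplasmic reticulum, was at 66.2, 70.9 and 73.2 CPM in the WT libraries, 26.7, 26.7 and 26.1 CPM in those of 11H1 and 46.9, 47.8 and 46.8 CPM in those of 14B5. The 3 groups did not overlap, and 11H1 was the lowest. Its log2FC was −1.40 in 11H1 (standard error 0.05, adjusted p = 1.24e-09 in edgeR) and −0.59 in 14B5 (standard error 0.05, adjusted p = 5.78e-06), the largest fall among the members in 11H1. *SREBF1*, which encodes the SREBP best known for fatty acid genes, was at 155, 162 and 154 CPM in the WT libraries, 82.0, 80.0 and 77.1 CPM in those of 11H1 and 117, 117 and 116 CPM in those of 14B5. It followed the order of *INSIG1*, with a log2FC of −0.97 in 11H1 (standard error 0.05, adjusted p = 9.37e-09 in edgeR) and −0.45 in 14B5 (standard error 0.04, adjusted p = 1.60e-05).

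*SREBF2*, the gene for the SREBP best known for cholesterol genes, differed much less from WT. It was at 326, 324 and 344 CPM in the WT libraries, 301, 290.4 and 295 CPM in those of 11H1 and 269.8, 287 and 281 CPM in those of 14B5. All KO libraries were below WT, with a log2FC of −0.16 in 11H1 (edgeR adjusted p = 0.00895) and −0.26 in 14B5 (adjusted p = 0.000993). *STARD4*, which carries cholesterol between membranes, was at 32.9, 34.0 and 38.0 CPM in the WT libraries, 21.6, 21.6 and 22.2 CPM in those of 11H1 and 20.6, 21.1 and 17.4 CPM in those of 14B5. Its log2FC was −0.84 in 14B5 (standard error 0.08, adjusted p = 1.52e-05 in edgeR), the largest fall of any member there, and −0.67 in 11H1 (standard error 0.06, adjusted p = 1.77e-06). Without 14B5 library 3 it was at −0.76 and *TM7SF2* at −0.81, and without WT library 3 they were at −0.77 and −0.81, so the order of these members turned. *SCAP*, the escort of the SREBPs, was at 119, 130.0 and 129 CPM in WT and between 119 and 129 CPM in the KO libraries, which overlapped WT. Its log2FC was −0.01 in 11H1 and −0.07 in 14B5 (edgeR adjusted p = 0.850 and 0.232), and 2 standard errors either side reached from −0.11 to 0.09 and from −0.17 to 0.02.

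**Figure D2:**
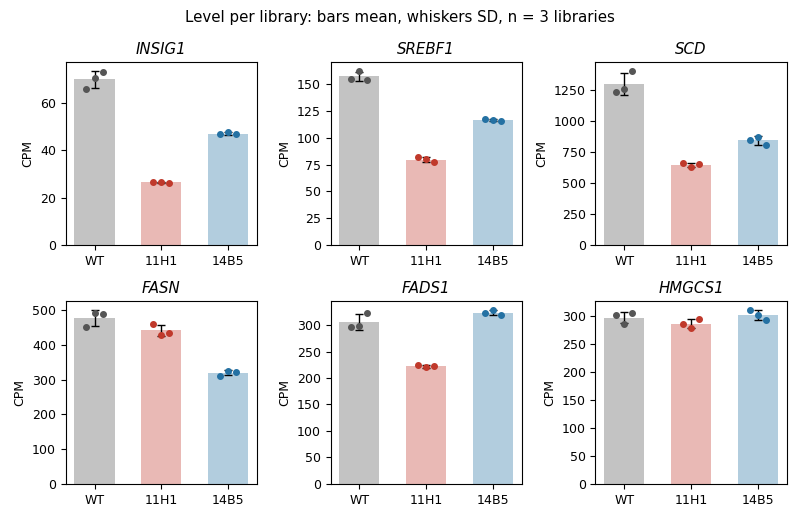
Bars are the mean CPM of 3 libraries, whiskers the SD and points the single libraries, for WT, 11H1 and 14B5. *INSIG1*, *SREBF1* and *SCD* were lowest in 11H1, *FASN* was lowest in 14B5, *FADS1* was low in 11H1 alone, and *HMGCS1* overlapped in all 3 groups.

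Of the 11 genes from squalene to cholesterol, 10 were lower in 11H1, 9 in 14B5 and 8 in KO. The shares of all genes tested were 32.8%, 28.7% and 17.7%. *FDFT1*, squalene synthase at the branch point to sterols, was at 434, 429.8 and 422 CPM in the WT libraries, 221, 233 and 227 CPM in those of 11H1 and 274, 279 and 289 CPM in those of 14B5. The groups stood apart, with a log2FC of −0.91 in 11H1 (standard error 0.04, adjusted p = 8.88e-09 in edgeR) and −0.63 in 14B5 (standard error 0.04, adjusted p = 1.61e-06). *CYP51A1*, the lanosterol demethylase, was at 119, 116 and 119 CPM in the WT libraries, 61.0, 62.8 and 62.7 CPM in those of 11H1 and 90.1, 86.4 and 85.1 CPM in those of 14B5. Its log2FC was −0.92 in 11H1 (edgeR adjusted p = 6.79e-09) and −0.45 in 14B5 (adjusted p = 1.67e-05). RSEM had divided reads between it and other genes in all 9 libraries. Its largest pseudogene held 2.54% of its own level, both summed over the libraries. *DHCR7*, which carries out the last reduction to cholesterol, was at 103, 109 and 106 CPM in the WT libraries, 61.0, 63.7 and 54.4 CPM in those of 11H1 and 68.7, 63.5 and 63.8 CPM in those of 14B5. The clones overlapped each other and lay well below WT, with a log2FC of −0.82 in 11H1 (edgeR adjusted p = 2.27e-07) and −0.71 in 14B5 (adjusted p = 1.53e-06).

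Some sterol genes fell further in 14B5. *TM7SF2*, a sterol reductase, was at 25.7, 26.3 and 23.8 CPM in the WT libraries, 17.4, 19.3 and 17.7 CPM in those of 11H1 and 14.7, 14.4 and 15.5 CPM in those of 14B5. Its log2FC was −0.48 in 11H1 and −0.78 in 14B5 (edgeR adjusted p = 4.35e-05 and 3.61e-06). *LSS*, lanosterol synthase, was at 304, 302 and 289 CPM in the WT libraries, 249.6, 253 and 237 CPM in those of 11H1 and 208, 208 and 212 CPM in those of 14B5, with a log2FC of −0.27 and −0.53 (edgeR adjusted p = 0.000314 and 5.31e-06). For both genes 14B5 was the lowest group and the 3 groups did not overlap. *MSMO1* (methylsterol monooxygenase), *EBP* (a sterol isomerase) and *SC5D* (a sterol desaturase) fell in both clones, by more in 11H1, with log2FC values of −0.59, −0.73 and −0.36 there and of −0.20, −0.28 and −0.15 in 14B5. The call of *SC5D* in 14B5 was lost with DESeq2 (adjusted p = 0.0512), library totals (0.0546), no filter on low counts (0.124) and a replicate block (0.0917). *SQLE*, squalene epoxidase, and *NSDHL*, a sterol dehydrogenase, were called in 11H1 only (log2FC −0.25 and −0.28) and were at −0.07 and −0.10 in 14B5. *HSD17B7*, a sterol ketone reductase and the member with the lowest level per length, was at −0.12 in 11H1 (edgeR adjusted p = 0.217) and −0.27 in 14B5 (adjusted p = 0.0326), with no call between the clones (0.14, adjusted p = 0.204). Its call in 14B5 was lost with no filter (0.0527) and with a replicate block (0.0646). Its largest pseudogene held 11.3% of its own level, both summed over the 9 libraries.

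Of the 7 mevalonate and isoprenoid genes, 6 were lower in 11H1, 5 in 14B5 and 5 in KO. The shares of all genes tested were 32.8%, 28.7% and 17.7%. *MVK*, mevalonate kinase, was at 21.3, 23.3 and 20.1 CPM in the WT libraries, 13.4, 14.8 and 13.2 CPM in those of 11H1 and 15.1, 14.9 and 15.5 CPM in those of 14B5. *FDPS*, farnesyl diphosphate synthase, was at 238, 234 and 223 CPM in the WT libraries, 153, 151 and 152 CPM in those of 11H1 and 172, 173 and 181 CPM in those of 14B5. Every library of both clones was below WT for these genes, with log2FC values of −0.64 and −0.61 in 11H1 and of −0.52 and −0.42 in 14B5. *ACAT2*, the cytosolic thiolase that opens the pathway, was at −0.50 in 11H1 and −0.37 in 14B5 (edgeR adjusted p = 1.77e-06 and 0.000127). *PMVK* and *MVD*, the next kinase and the decarboxylase after *MVK*, were at −0.55 and −0.44 in 11H1 and at −0.30 and −0.62 in 14B5, each past the threshold. *IDI1*, the isopentenyl diphosphate isomerase, was called in 11H1 (−0.31) and not in 14B5 (−0.07, adjusted p = 0.247 in edgeR).

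*HMGCS1*, which makes HMG-CoA just before mevalonate, was the exception. It was at 302, 286 and 305 CPM in the WT libraries, 286, 279.8 and 295 CPM in those of 11H1 and 312, 302 and 294 CPM in those of 14B5. All 3 groups overlapped. Its log2FC was −0.05 in 11H1 and 0.01 in 14B5 (edgeR adjusted p = 0.382 and 0.930), and 2 standard errors either side reached from −0.14 to 0.04 and from −0.09 to 0.10, which leaves out falls of the size seen in *FDFT1* or *FDPS*.

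Of the 7 fatty acid genes, 6 were lower in each clone, with a different exception in each, and 4 in KO. Of all genes tested, 32.8% were lower in 11H1, 28.7% in 14B5 and 17.7% in KO. *SCD*, the desaturase that makes oleate, was at 1231, 1254 and 1399.9 CPM in the WT libraries, 657, 626 and 651 CPM in those of 11H1 and 847, 871 and 802 CPM in those of 14B5. It was the member with the highest CPM, in total and per length, in every group and the second largest fall in 11H1, with a log2FC of −1.0 (standard error 0.06, adjusted p = 2.84e-08 in edgeR) there and −0.64 (standard error 0.06, adjusted p = 1.20e-05) in 14B5. *FADS2*, a desaturase of polyunsaturated fatty acids, was at 849, 888 and 859 CPM in the WT libraries, 527, 519.8 and 522 CPM in those of 11H1 and 662, 682 and 675 CPM in those of 14B5. Its log2FC was −0.72 and −0.38 (edgeR adjusted p = 6.19e-08 and 5.90e-05), with no overlap among the groups.

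*FASN* and *FADS1* parted the clones in opposite directions. *FASN*, fatty acid synthase, was at 451, 492 and 489 CPM in the WT libraries, 461, 429 and 436 CPM in those of 11H1 and 311, 324 and 323 CPM in those of 14B5. The libraries of 11H1 overlapped WT and those of 14B5 did not, with a log2FC of −0.10 in 11H1 (edgeR adjusted p = 0.0965) and −0.60 in 14B5 (adjusted p = 5.12e-06). It was also called in 11H1 without WT library 1 (−0.15, adjusted p = 0.0251 in edgeR) and with no filter on low counts (−0.13, adjusted p = 0.0398). *FADS1*, the desaturase that acts after *FADS2* on polyunsaturated fatty acids, was at 296, 298 and 322 CPM in the WT libraries, 225, 219.9 and 222 CPM in those of 11H1 and 323, 329 and 319.7 CPM in those of 14B5. It was lower in 11H1 (log2FC −0.45, adjusted p = 5.45e-06 in edgeR), whereas 14B5 overlapped the highest WT library (0.07, adjusted p = 0.262, and 0.12 with adjusted p = 0.0483 without WT library 3). The models of *FADS1* and *FADS2* overlap on opposite strands, as do those of *MVK* with *MMAB*, *SREBF1* with *RAI1* and *ACAT2* with *TCP1*. *TM7SF2* overlaps *VPS51*, *FADS2* overlaps *FEN1* and *CYP51A1* overlaps *AC000120.3* on the same strand. Overlaps can make counts less certain, which was not tested. The expected counts of these overlapping members were whole in all 9 libraries, except those of *CYP51A1*. Counts showing divided reads were found in all 9 libraries for *CYP51A1* and *HSD17B7* and in 6 for *EBP*. *ELOVL6*, a fatty acid elongase, and *ACLY*, which makes cytosolic acetyl-CoA from citrate, were lower in both clones, at −0.40 and −0.30 in 11H1 and at −0.15 and −0.18 in 14B5. *ACACA*, the acetyl-CoA carboxylase, was at −0.15 in 11H1 (edgeR adjusted p = 0.0472) and −0.18 in 14B5 (adjusted p = 0.0101), and lost its call in 11H1 without WT library 3 or without library 2 or 3 of 11H1 (adjusted p from 0.0547 to 0.224), with library totals (0.0924) and with protein-coding genes only (0.078).

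**Figure D3:**
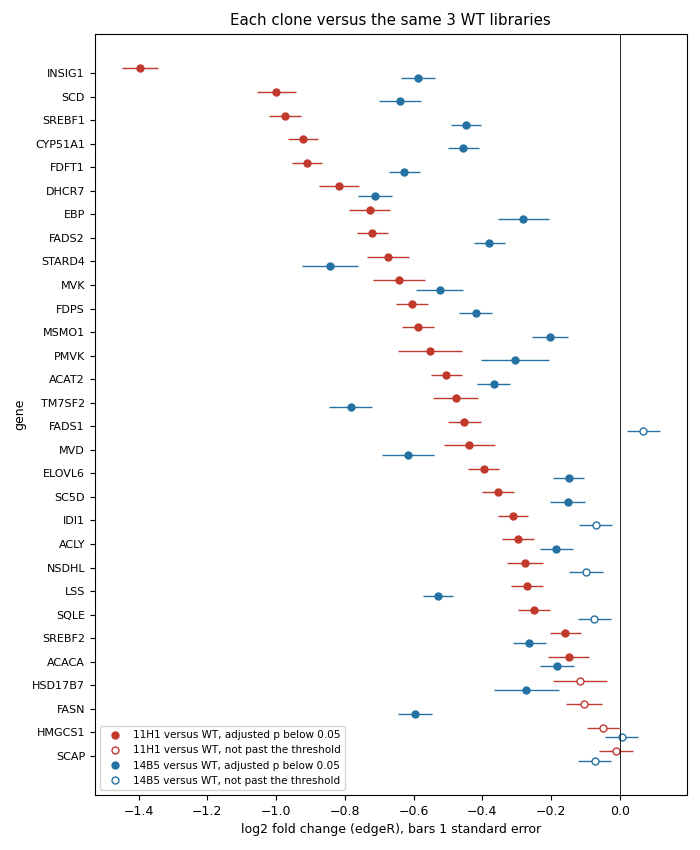
Points are log2 fold changes against the same 3 WT libraries, with bars of 1 standard error, for 11H1 (red) and 14B5 (blue); filled points are past the threshold and open points are not. All points of 11H1 lie below 0, from −1.40 for *INSIG1* to −0.01 for *SCAP*, and those of 14B5 lie from −0.84 for *STARD4* to 0.07 for *FADS1*.

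The pooled comparison called fewer members, and the difference between the clones is by construction part of its spread. Of its 21 lower members, 14 kept the call whichever library was left out, namely *ACAT2*, *CYP51A1*, *DHCR7*, *FADS2*, *FDFT1*, *FDPS*, *INSIG1*, *LSS*, *MVD*, *MVK*, *SCD*, *SREBF1*, *STARD4* and *TM7SF2*. The other 7 lost it in at least 1 case. *ELOVL6*, *MSMO1* and *SC5D* lost it without any 1 of the WT or 11H1 libraries (adjusted p up to 0.148, 0.125 and 0.140 in edgeR), *EBP* without any WT library or library 2 of 11H1 (up to 0.110), *ACLY* and *SREBF2* without WT library 2 or 3 (up to 0.0804 and 0.0726), and *PMVK* without WT library 1 or 2 (up to 0.110). With 1 library left out, 12.6% to 18.1% of all genes were called lower in KO, against 17.7% in the main fit. How many of all genes kept the call throughout was not counted. *DHCR7* had the smallest adjusted p in KO (log2FC −0.76, adjusted p = 2.99e-05 in edgeR), and *INSIG1* the largest fall (−0.93, adjusted p = 0.0109). The 2-sided exact permutation test of mean log2 CPM gave p = 0.0119 for 13 of the 30 members, *DHCR7* and *STARD4* among them, and for *DYRK1A*. That is the smallest p that the 84 ways to part 6 libraries from 3 allow, without adjustment over genes. The test treats the 6 KO libraries as exchangeable, although they come from 2 clones. It was not run over all genes, of which 20.3% had every KO library below every WT library.

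In 14B5 versus WT, 16 of the 24 calls held whichever library was left out, and in 11H1 versus WT 25 of 26 did, *ACACA* being the exception. With 1 library left out, 24.5% to 27.5% of all genes were lower in 14B5, against 28.7% in the main fit. In 11H1 the share was 29.4% to 33%, against 32.8%. *ELOVL6* in 14B5 lost its call without WT library 1 or 3 or any 14B5 library, and *SC5D* without WT library 2 or 3 or any 14B5 library (adjusted p up to 0.0846 and 0.116 in edgeR). *HSD17B7* and *PMVK* lost it without WT library 1 or 2 or 14B5 library 1 or 2 (up to 0.118 and 0.113). *ACACA* lost it without 14B5 library 1 (0.0615), and *ACLY*, *EBP* and *MSMO1* without 14B5 library 2 (0.0605, 0.0525 and 0.0582).

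The clones were also set directly against each other, without the WT libraries. Of the 30 members, 18 were lower and 4 higher in 11H1 than in 14B5, and 8 were not called, where 32.1% of 16352 genes were called lower and 31.6% higher. The median log2FC of the members was −0.19, against −0.0044 over all genes. *INSIG1* differed most (−0.83, standard error 0.04, adjusted p = 3.70e-08 in edgeR), ahead of *SREBF1* (−0.54, adjusted p = 6.40e-07), *FADS1* (−0.54, adjusted p = 3.88e-07), *CYP51A1* (−0.48, adjusted p = 1.81e-06) and *EBP* (−0.46, adjusted p = 7.46e-05). Higher in 11H1 were *FASN* (0.47, standard error 0.04, adjusted p = 2.30e-06 in edgeR), *TM7SF2* (0.29, adjusted p = 0.00154), *LSS* (0.24, adjusted p = 0.000329) and *MVD* (0.16, adjusted p = 0.0208). *MVD* lost that call without library 1 or 2 of 11H1 or library 2 or 3 of 14B5 (adjusted p from 0.0548 to 0.0809), *ACLY* without library 2 or 3 of 11H1 (0.0557 and 0.0532), and *PMVK* without library 1 of 11H1 (0.0777). The other 19 calls held whichever library was left out. *MVD* also lost it with DESeq2, no filter, a replicate block or 1 fit of 3 groups (0.0528 to 0.0939), and *ACLY* with library totals, upper-quartile factors or protein-coding genes only (0.0581 to 0.081).

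The members not called between the clones included some of the largest falls against WT. *DHCR7* was at −0.12 (edgeR adjusted p = 0.0940) and *STARD4* at 0.15 (adjusted p = 0.0770), with 2 standard errors either side reaching from −0.24 to −0.0020 and from 0.01 to 0.30. *MVK* was at −0.13 (edgeR adjusted p = 0.0824) and *SREBF2* at 0.09 (adjusted p = 0.0866). Leaving out 1 library brought 3 of these past the threshold (*DHCR7* and *MVK* without library 2 of 11H1, adjusted p = 0.0420 and 0.0314, and *STARD4* without library 2 of 14B5, adjusted p = 0.0408), and likewise *HSD17B7* without library 3 of 14B5 (adjusted p = 0.0319). With library totals, upper-quartile factors, at least 10 counts in every library or protein-coding genes only, *SREBF2* (adjusted p from 0.0181 to 0.04) and *STARD4* (0.0255 to 0.0439) were called higher in 11H1, and with no filter *DHCR7* was called lower (0.0137).

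**Figure D4:**
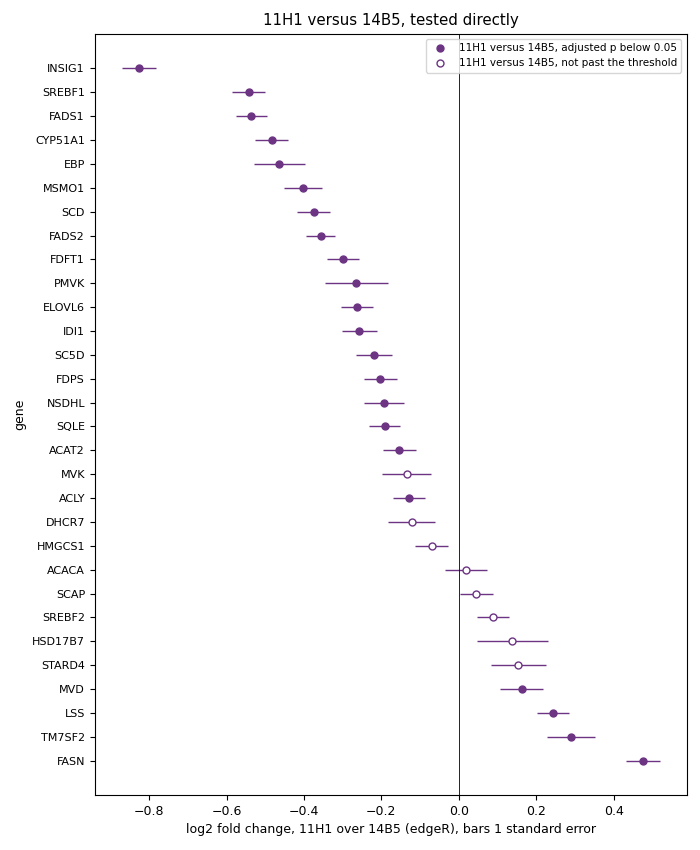
Points are log2 fold changes of 11H1 over 14B5 with bars of 1 standard error; filled points are past the threshold and open points are not. *INSIG1* lies lowest at −0.83 and *FASN* highest at 0.47.

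Compared per length, the members spanned a wide range of levels. In WT the median was 28.3 CPM per kilobase of annotated exon, from 2.20 ± 0.0884 (SD, n = 3) for *HSD17B7* to 241 ± 17.1 (SD, n = 3) for *SCD*. After *SCD* came *FDFT1* (82.4 ± 1.17), *FADS2* (78.5 ± 1.86) and *ACLY* (76.7 ± 2.85), neighbors in the order whose spreads overlapped for *FADS2* and *ACLY*. *HMGCS1* (63.4 ± 2.17) and *FDPS* (62.3 ± 2.18) also overlapped. In 11H1 *FDFT1* came 6th in this order and in 14B5 5th, whereas *ACLY* and *HMGCS1* came 2nd and 3rd in both clones. *SCD* stayed first, at 120.3 and 157 CPM per kilobase. This order depends on the length used. With the longest annotated transcript, *FADS2* came 2nd and *FDFT1* 3rd in all 3 groups, and *ACLY* came 5th in WT and 6th in both clones.

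The members' levels followed a shared profile over the 9 libraries to different degrees. As a description over 9 libraries in 3 groups, *FDFT1* (Pearson r 0.995), *SCD* (0.993) and *FDPS* (0.987) lay closest to the mean standardized log2 CPM of the 30 genes, which includes them, and *SCAP* (0.265), *HMGCS1* (0.356) and *FASN* (0.370) furthest from it. Among 17050 other genes the most alike were *NREP*, the glycolytic enzyme gene *ENO1*, the lysosomal protease gene *CTSS*, the lysosomal cofactor gene *GM2A* and the mitochondrial ribosomal gene *MRPL30* (r from 0.998 to 0.999). *ENO1* averaged 2415 CPM in WT, 1225 CPM in 11H1 and 1543 CPM in 14B5.

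The members did not sit together in the genome. They lie on 15 chromosomes of GRCh38, with at most 5 on the same chromosome. *INSIG1* (ENSG00000186480.13) lies on chromosome 7 from 155297776 to 155310235, *SREBF1* (ENSG00000072310.17) on chromosome 17 from 17810399 to 17837002, *SCD* (ENSG00000099194.6) on chromosome 10 from 100347124 to 100364834 and *STARD4* (ENSG00000164211.13) on chromosome 5 from 111496033 to 111512590. Other tested genes within 5000000 bases of a member had median log2FC values from −0.27 to 0.26 in 11H1 and from −0.18 to 0.14 in 14B5. The member was below its neighbors' median for 30 of 30 genes in 11H1 and 28 of 30 in 14B5, by a median of −0.49 and −0.32. These neighbor medians were themselves near 0 (median 0.03 and 0.0008). The counts therefore largely repeat that 30 and 28 members had a log2FC below 0. The same count was not made for all genes. The neighbors of *FDFT1* were the lowest, at −0.27 and −0.18, where *FDFT1* itself was at −0.91 and −0.63.

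Other genes of the same pathways, outside the 30 members, moved in both directions. In 11H1 lower calls outnumbered higher ones in every other list except that of isoprenoid use. In 14B5 higher calls outnumbered lower ones in every other list. Of all genes tested, 32.8% were lower and 31.8% higher in 11H1, and 28.7% and 24.9% in 14B5. Of 10 genes of SREBP processing and sterol sensing, 6 were lower and 1 higher in 11H1, and 2 were lower and 3 higher in 14B5. *INSIG2*, the second INSIG gene, averaged 34.9 CPM in WT, 15.5 CPM in 11H1 and 18.1 CPM in 14B5, with a log2FC of −1.18 and −0.96 (edgeR adjusted p = 2.45e-07 and 4.42e-06). The Golgi protease genes that release the SREBPs, *MBTPS1* and *MBTPS2*, were at 0.01 and −0.32 in 11H1 and at 0.03 and −0.13 in 14B5, with *MBTPS2* in 11H1 alone past the threshold (edgeR adjusted p = 0.00152); both were named after their values were seen.

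Of 13 genes of cholesterol export, storage and lysosomal exit, 5 were lower and 1 higher in 11H1, and 4 were lower and 5 higher in 14B5. Of all genes tested, 32.8% were lower and 31.8% higher in 11H1, and 28.7% and 24.9% in 14B5. *ABCA1*, the cholesterol exporter, averaged 5.91 CPM in WT, 0.681 CPM in 11H1 and 0.857 CPM in 14B5, with a log2FC of −3.06 and −2.78 (edgeR adjusted p = 4.11e-08 and 3.68e-07), and *STARD3*, a late endosomal sterol transporter, was higher (0.31 and 0.16). The call of *STARD3* in 14B5 was lost under 4 of 16 alternatives. Of 11 genes that use isoprenoids, 4 were higher and 2 lower in 11H1, and 3 were higher and 2 lower in 14B5, with *FNTA*, a subunit of the prenyltransferases, higher in both (0.24 and 0.28).

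Of 23 tested genes of fatty acid and glycerolipid synthesis, 12 were lower and 5 higher in 11H1, and 8 were lower and 10 higher in 14B5. Of all genes tested, 32.8% were lower and 31.8% higher in 11H1, and 28.7% and 24.9% in 14B5. *ME1*, the cytosolic malic enzyme that supplies NADPH, averaged 31.5 CPM in WT, 8.34 CPM in 11H1 and 4.75 CPM in 14B5, with a log2FC of −1.92 and −2.75 (edgeR adjusted p = 9.27e-10 and 2.54e-09). *ELOVL7*, an elongase, was also lower (−0.88 and −2.93). *SCD5*, the other human stearoyl-CoA desaturase gene, went the opposite way to *SCD*, from 3.03 CPM in WT to 6.04 CPM in 11H1 and 8.80 CPM in 14B5 (1.0 and 1.52, adjusted p = 4.08e-06 and 5.66e-07 in edgeR), as did *ACSL1*, an acyl-CoA synthetase (0.51 and 0.77). For fatty acid oxidation, 5 of 13 tested genes were lower and 2 higher in 11H1, and 1 was lower and 6 higher in 14B5. *CPT2*, a carnitine acyltransferase, was lower in both clones (−0.52 and −0.26), and *ACADVL*, an acyl-CoA dehydrogenase gene, was higher (0.24 and 0.16). The call of *ACADVL* in 14B5 was lost under 5 of 16 alternatives.

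**Figure D5:**
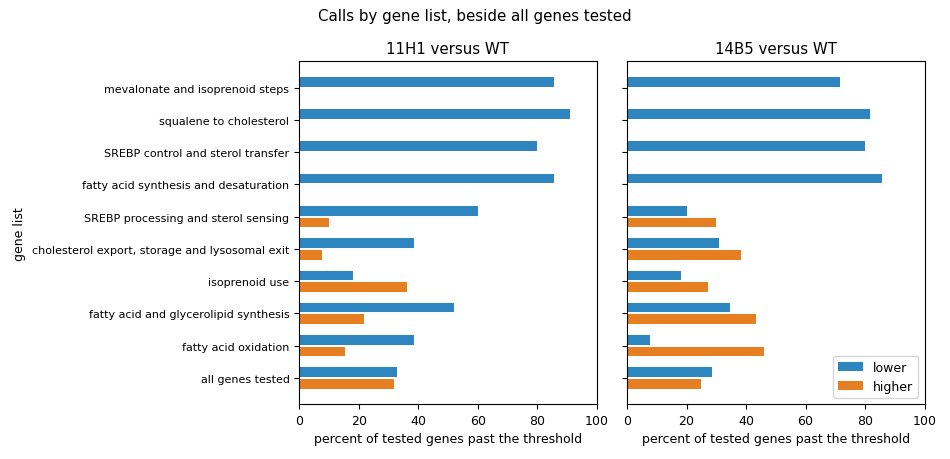
Bars are the percent of tested genes past the threshold, lower (blue) and higher (orange), for the 4 roles of the member genes, the 5 other lists and all genes tested, in 11H1 and 14B5 versus WT. No member role has an orange bar, whereas every other list has bars of both colors, and all genes tested stand at 32.8% lower and 31.8% higher in 11H1 and at 28.7% and 24.9% in 14B5.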

How the data were processed

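RNA from WT SET2 cells and from *DYRK1A* KO clones 11H1 and 14B5 (n = 3 libraries each) was sequenced. Expected counts of each gene from RSEM, as the authors deposited them, are estimates not scaled for depth or gene length; a read that matches several genes is divided among them. The submitters' processing notes name STAR 2.7.9a, Picard, RSEM and build GRCh38, and the RSEM version and annotation release are not given in the sources used here. The paper describes stranded mRNA libraries and the sample descriptions another kit. The paper counts 5 KO libraries; all 6 were used.

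The table held 60754 entries, of which 92 spike-in controls were at 0. Expected counts were rounded and tested with edgeR 4.0.16 in R 4.3.3 (TMM, filterByExpr, quasi-likelihood F test, Benjamini-Hochberg adjustment over all genes tested, threshold 0.05), for each clone and both clones as KO versus WT and for 11H1 versus 14B5. CPM values use library sizes scaled by TMM. Where no count was seen, up to 3 could have been missed (0.0914 CPM at the lowest depth), a limit for counting error only. Single genes were compared by an exact permutation test on log2(CPM + 0.1), with scipy 1.17.1. Positions and exon lengths are from GENCODE v29, which placed 96.6% of genes, and promoters from RefSeq on GRCh38.p14. Alternatives were DESeq2 1.42.0, limma-voom 3.58.1, other scaling factors and filters, a replicate block, 1 fit of 3 groups, and leaving out each library. The steps were tested on simulated counts.

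The members and lists were chosen with earlier results of these data known. Named were *DYRK1A*, every member, from each other list at most 2 genes in each direction with the largest mean change among those called the same way in both clones (mean of at least 1 CPM), and the 5 genes most like the members' profile; some genes that this rule names are not reported here. Promoters with a CCAAT box were added for display after the data were seen, where at least 100 bases lay before the gene model. Within groups, libraries differed from each other by 3.83 to 32.9 times what sampling alone gives, so none was a copy.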

Additional observations from a re-analysis of the deposited data

Results flagged for a closer look

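The lowest KO library of *STARD4*, library 3 of 14B5 at 17.4 CPM, stood apart from the other 5 KO libraries (gap over range 0.661); this was 1 of 31 groups examined, where chance gives about 1 in 20.

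For 22 of the 30 members the change against WT differed between the clones when 11H1 was tested directly against 14B5 in edgeR, where 63.7% of the 16352 genes tested differed in either direction. In the mevalonate and isoprenoid steps the difference (11H1 minus 14B5, log2) was −0.27 for *PMVK*, −0.26 for *IDI1*, −0.20 for *FDPS*, −0.15 for *ACAT2* and 0.16 for *MVD*. From squalene to cholesterol it was −0.48 for *CYP51A1*, −0.46 for *EBP*, −0.40 for *MSMO1*, −0.30 for *FDFT1*, −0.22 for *SC5D*, −0.19 for *NSDHL* and for *SQLE*, 0.24 for *LSS* and 0.29 for *TM7SF2*. In SREBP control it was −0.83 for *INSIG1* and −0.54 for *SREBF1*. In fatty acid synthesis and desaturation it was −0.54 for *FADS1*, −0.38 for *SCD*, −0.36 for *FADS2*, −0.26 for *ELOVL6*, −0.13 for *ACLY* and 0.47 for *FASN*. The mitochondrial share of the counts, 7.23% to 7.39% in 11H1 and 3.30% to 3.92% in 14B5, coincides with the clone and cannot be told apart from it.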

How the results depend on the processing

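Of 2010 recomputed values of single members, 1877 kept their direction and their side of the threshold, 90 kept the direction and lost the call, 29 gained it and 14 turned direction, all 14 of them to values between −0.023 and 0.012. Lower members numbered 25 to 27 for 11H1 versus WT, 17 to 22 for 14B5 and 14 to 21 for KO when 1 library was left out, and 17 to 19 for 11H1 versus 14B5, with 3 to 4 higher. Of all genes, 29.4% to 33%, 24.5% to 27.5%, 12.6% to 18.1% and 28.4% to 31.5% were lower in these fits. Between the clones 27.9% to 30.5% were higher. Members higher in 14B5 numbered 0 to 1, the 1 being *FADS1* without WT library 3, where 26% of all genes were higher. Under the other alternatives the lower members were 25 to 27, 20 to 24, 14 to 28 and 17 to 19, with 3 to 6 higher in 11H1 than in 14B5, the 6 under library totals, upper-quartile factors, at least 10 counts in every library and protein-coding genes only. Under these other alternatives the share of all genes called lower ran from 22.2% to 34.6%, 18% to 31%, 10.4% to 30.5% and 21.3% to 33.4%. The share called higher in 11H1 than in 14B5 ran from 20.1% to 34%. The 28 in KO came from a fit of 3 groups, in which the difference between the clones leaves the spread, and the lowest by another filter, 16, from no filter on low counts. The share of all genes called lower in KO moved likewise, to 30.5% and 10.4% from 17.7% in the main fit. Libraries with the same replicate number did not deviate together (Pearson r from −0.14 to 0.06 over 17080 genes). With that number as a block, the lower members were 26 in 11H1, 20 in 14B5, 14 in KO and 18 in 11H1 versus 14B5. Of all genes, 32.6%, 25.5%, 13.8% and 31.1% were lower in these fits.

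*SCAP* in 11H1 turned to 0.0092 with library totals, 0.012 with protein-coding genes, 0.0023 without WT library 2 and 0.011 without 11H1 library 3. *HMGCS1* in 14B5 turned to −0.023 with upper-quartile factors, −0.013 with at least 10 counts in every library, −0.010 with protein-coding genes and −0.021 without WT library 2, and in KO to 0.0018 without WT library 3 and 0.00085 without 11H1 library 2. *ACACA* in 11H1 versus 14B5 turned to −0.0058 with no filter, −0.014 and −0.019 without 11H1 library 1 and 3, and −0.0086 without 14B5 library 1. Over all libraries left out, *SCAP* in 11H1 lay between −0.057 and 0.011, *HMGCS1* in 14B5 between −0.021 and 0.038 and in KO between −0.036 and 0.0018, and *ACACA* between −0.019 and 0.075. The cause was not tested. With the longest transcript as length, 9 of 30 members kept their place in the order of WT levels, and *FADS1* moved by 8 places. Depth did not limit the members, the lowest holding 300.3 counts.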
